A study of Mus musculus with 14 samples.

Results

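The 45 genes described here encode the route of pyruvate into mitochondria, the enzymes of the tricarboxylic acid (TCA) cycle and the first steps of glutamine and glutamate use. They were taken from a list of gene symbols named by function, with no cut on a measured value, but the list was drawn up with earlier results of these data known. All 45 were found among the 24972 rows of the expression table. All 45 also passed the filter on low values, a mean value of 10 or more, and all had at least 10 normalized counts in every library.

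Poly(A) RNA was sequenced from a mouse hepatocellular carcinoma cell line and its knockout derivatives, grown for 24 hours in DMEM with 10% serum. The parent line came from a liver tumour induced with diethylnitrosamine in an Acly fl/fl mouse, so every genotype started from floxed Acly alleles. There were 4 WT libraries and 4 ACLY KO libraries, both from cells transduced in bulk with an empty LentiCRISPR v2 vector, and the ACLY KO cells descended from a single-cell clone isolated after adenoviral Cre. There were 3 ACSS2 KO libraries, from a single-cell clone made with a guide to Acss2, and 3 DKO1 libraries, from a single-cell clone made with a guide to Acss2 in ACLY KO cells. Each knockout genotype is 1 clone and the sequencing was not repeated independently, so genotype and clone cannot be told apart and p-values measure the spread between libraries of a genotype, which may be technical.

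Pyruvate enters the mitochondrial matrix through a carrier made of MPC1 and MPC2. There the pyruvate dehydrogenase complex converts it to acetyl-CoA, and pyruvate carboxylase converts it to oxaloacetate. Citrate synthase joins both products to citrate, which either stays in the cycle or is exported to the cytosol, where ATP-citrate lyase (ACLY) splits it again. ACSS2 makes cytosolic acetyl-CoA from acetate. Glutamine refills the cycle as glutamate and 2-oxoglutarate, and transaminases and malate dehydrogenases on both sides of the mitochondrial membrane exchange carbon and reducing equivalents.

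The implied depth of the libraries was between 19170000 and 33530000 reads. Mean Acly was 1001 normalized counts for ACLY KO and 6050 for WT (SD 56.1 and 423, n = 4 each), and mean Acss2 was 132 for ACSS2 KO and 237 for WT (SD 4.88 and 11.5, n = 3 and 4). Acss2 mRNA averaged 535 for DKO1 (SD 69.1, n = 3) and 718 for ACLY KO (SD 56.7, n = 4), so in DKO1 its level does not mark the knockout. Of 13 hepatocyte markers, 6 reached a mean of 10, among them the keratins Krt8 and Krt18 and the secreted proteins Alb, Apoa2 and Apob. The secreted proteins Apoa1, Ahsg and Serpina1a had group means under 1. Mean Alb was 31.4 in WT, 23.4 for ACLY KO, 134 for ACSS2 KO and 11.3 for DKO1. Mean Apob was 112, 80.1, 30.1 and 282 in that order. Mean Hnf4a was 172 in WT and between 22.4 and 39.8 in the knockouts, and the biliary keratins Krt19 and Krt7 had group means between 3993 and 13364. The summed level of 4 cholangiocyte markers was 21647 to 31969 in WT, 8608 to 9374 for ACLY KO, 18274 to 20515 for ACSS2 KO and 11195 to 18276 for DKO1. That of 5 fibroblast or stellate markers was 405 to 497 in WT, 2385 to 2752 for ACLY KO, 563 to 586 for ACSS2 KO and 573 to 682 for DKO1. Col1a1 made up 92.2%, 95.8%, 90.6% and 75.9% of the mean sums in that order, and Col1a2 was 19.3 in WT and 99.6 in DKO1. Sums of 4 leukocyte markers were 39.8 to 76.2 in WT, 60.4 to 101 for ACLY KO, 26.3 to 53.3 for ACSS2 KO and 82.7 to 132 for DKO1. Those of 4 endothelial markers were 17.5 to 27.1, 77.1 to 90.6, 10.5 to 18.3 and 42.1 to 51.2 in that order. Mean Pecam1 was 7.51 in WT and 61.7 for ACLY KO, and mean Kdr 12.9 and 2.21. Adgre1, Stab2 and Lyz2 were at or near 0. The part of these differences in the results below was not tested.

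A library of DKO1, replicate 4, and a library of WT, replicate 2, stood apart from the others of their genotype. Over 12558 genes, their deviation from the genotype mean had a Spearman correlation with exon length of -0.694 and -0.605. ACLY KO replicate 4 and ACSS2 KO replicate 1 had correlations of -0.588 and -0.54, with smaller spreads among the members. Among the 45 genes, DKO1 replicate 4 was above both other DKO1 libraries for 26 and below both for 17. It was above both for all 12 genes with under 2000 bases of exon, and below both for 5 of the 7 genes with at least 4000 bases. WT replicate 2 was above the other 3 WT libraries for 27 genes and below them for 11. The extremes in DKO1 replicate 4 were Mpc2, 1.62 higher on the log2 scale than the mean of the other DKO1 libraries, and Pdp2, with a difference of -0.90. The counts below are therefore given with and without these libraries.

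**Figure D1:**
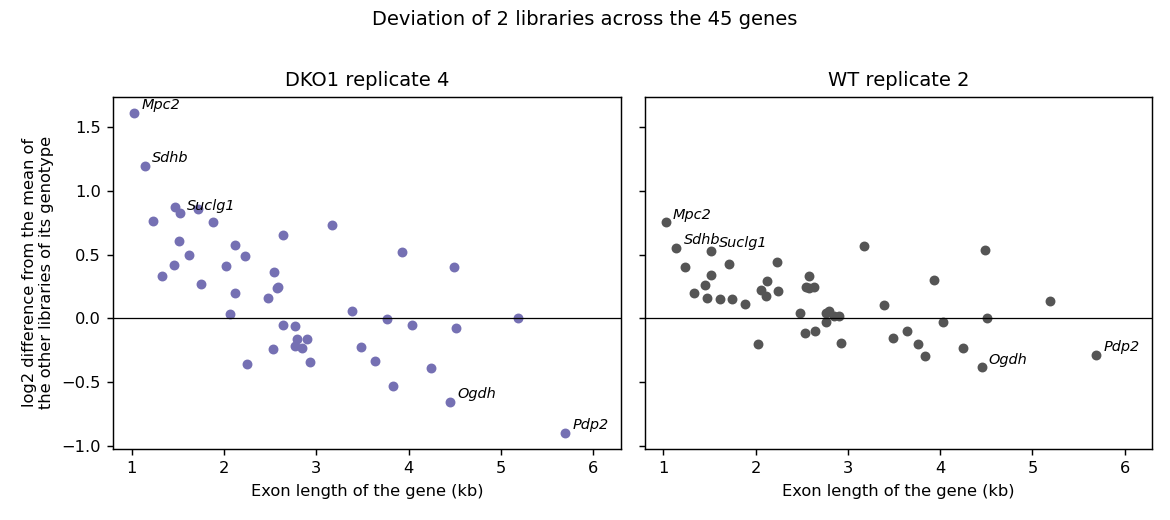
The x axis is the exon length of each of the 45 genes in kb and the y axis the log2 difference of its value in DKO1 replicate 4 (left) or WT replicate 2 (right) from the mean of the other libraries of the same genotype. Short genes such as Mpc2 and Sdhb lie above 0 in both libraries, with Spearman correlations over the 45 points of -0.686 and -0.561, which are descriptions across genes.

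A gene was called changed at an adjusted p under 0.05 in limma, over all 12711 genes tested. The fold changes are on the log2(value + 1) scale and are given with their standard errors (SE). In bulk cultures, fewer cells with an mRNA and less of that mRNA per cell cannot be told apart. In ACLY KO against WT, 27 of the 45 genes were called, 21 higher and 6 lower, while 48.5% of all genes tested were called, 23.8% higher and 24.7% lower. The median log2 fold change of the 45 genes was 0.29, and that of all genes -0.0067. In ACSS2 KO against WT, 11 were called, 9 higher and 2 lower, against 26% of all genes (15.1% higher and 11% lower), with medians of 0.10 and 0.0013. In DKO1 against WT, 29 were called, 22 higher and 7 lower, against 56% of all genes (27.9% higher and 28.1% lower), with medians of 0.26 and 0.0035. The called share of the members was thus 60%, 24.4% and 64.4% in the 3 comparisons with WT, and that in ACSS2 KO was near the share of all genes. Most called members were higher in each, and in ACSS2 KO more of all genes were also called higher than lower.

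In DKO1 against ACLY KO, which compares ACSS2 loss on the ACLY-deficient background, 19 members were called, 6 higher and 13 lower, against 27.9% of all genes (14.3% higher and 13.6% lower). In DKO1 against ACSS2 KO, 23 were called, 14 higher and 9 lower, against 53.7% of all genes. Without DKO1 replicate 4 and WT replicate 2 the counts were 41, 24, 34, 30 and 30 in the 5 comparisons in the order given, and the shares of all genes called were 69%, 48.1%, 68.6%, 43.4% and 66.7%. Every member called with all libraries was called again in the same direction without these libraries. With only the groups compared in the fit, 16 members were called in DKO1 against WT and 12 in DKO1 against ACLY KO, against 40.9% and 17.6% of all genes. The calls lost against WT were Dld, Dlst, Glud1, Idh2, Mdh2, Mpc1, Mpc2, Pcx, Pdhb, Pdk1, Sdhc, Slc25a11 and Suclg2, with adjusted p between 0.053 and 0.19. Those lost against ACLY KO were Cs, Idh2, Me2, Ogdh, Pcx, Pdp2 and Slc25a10, with adjusted p between 0.052 and 0.092. The genes Aco1, Fh1, Idh3a, Idh3g, Pdk4, Sdhd, Sucla2 and Suclg1, 8 of the 45, were called in no comparison. Glul, Me3, Pdha1 and Pdk3 were called in all 5 with all libraries, though some of the calls on Me3, Pdha1 and Pdk3 were lost on leaving out a library, as given with each gene. The comparisons with WT use the same WT libraries and are not independent of each other.

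**Figure D2:**
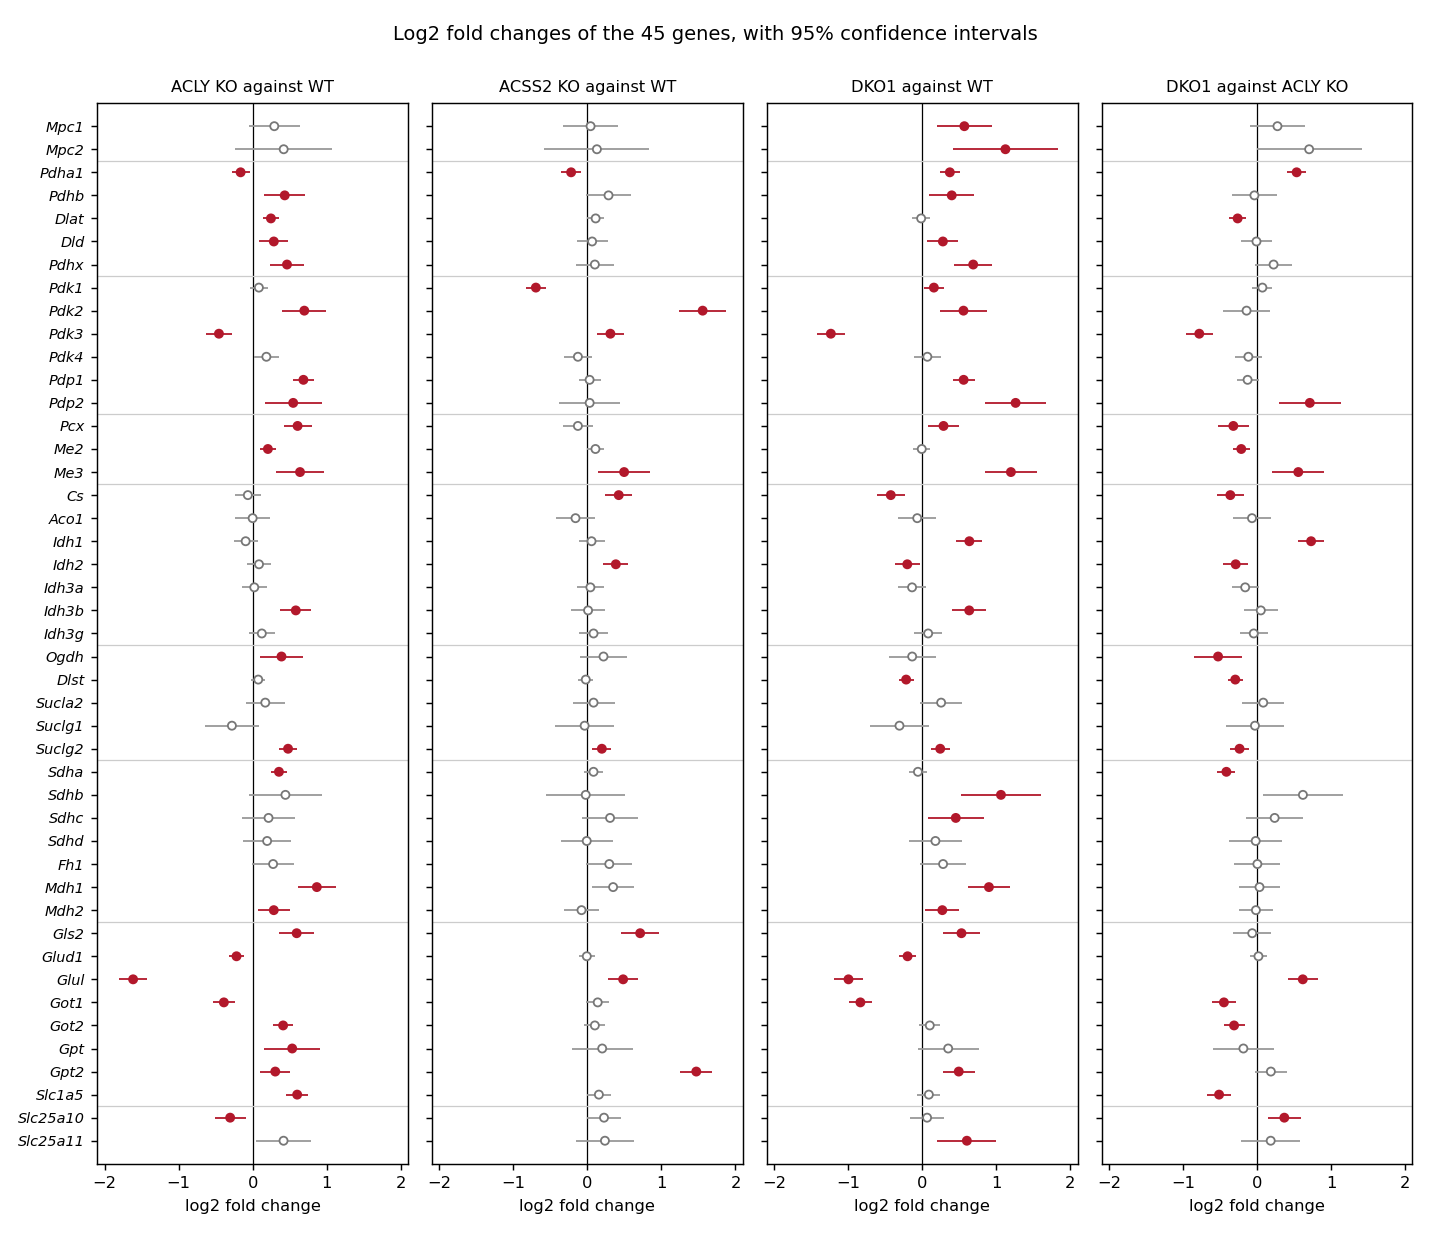
Log2 fold changes (x axis) of all 45 genes (y axis, ordered by role, grey lines between roles) in 4 comparisons, with 95% confidence intervals; filled red points passed an adjusted p of 0.05. Glul has the lowest point in ACLY KO against WT at -1.61, Pdk2 and Gpt2 the highest in ACSS2 KO at 1.56 and 1.47, and the intervals of Mpc2 and Sdhb are wide in every panel.

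**Figure D3:**
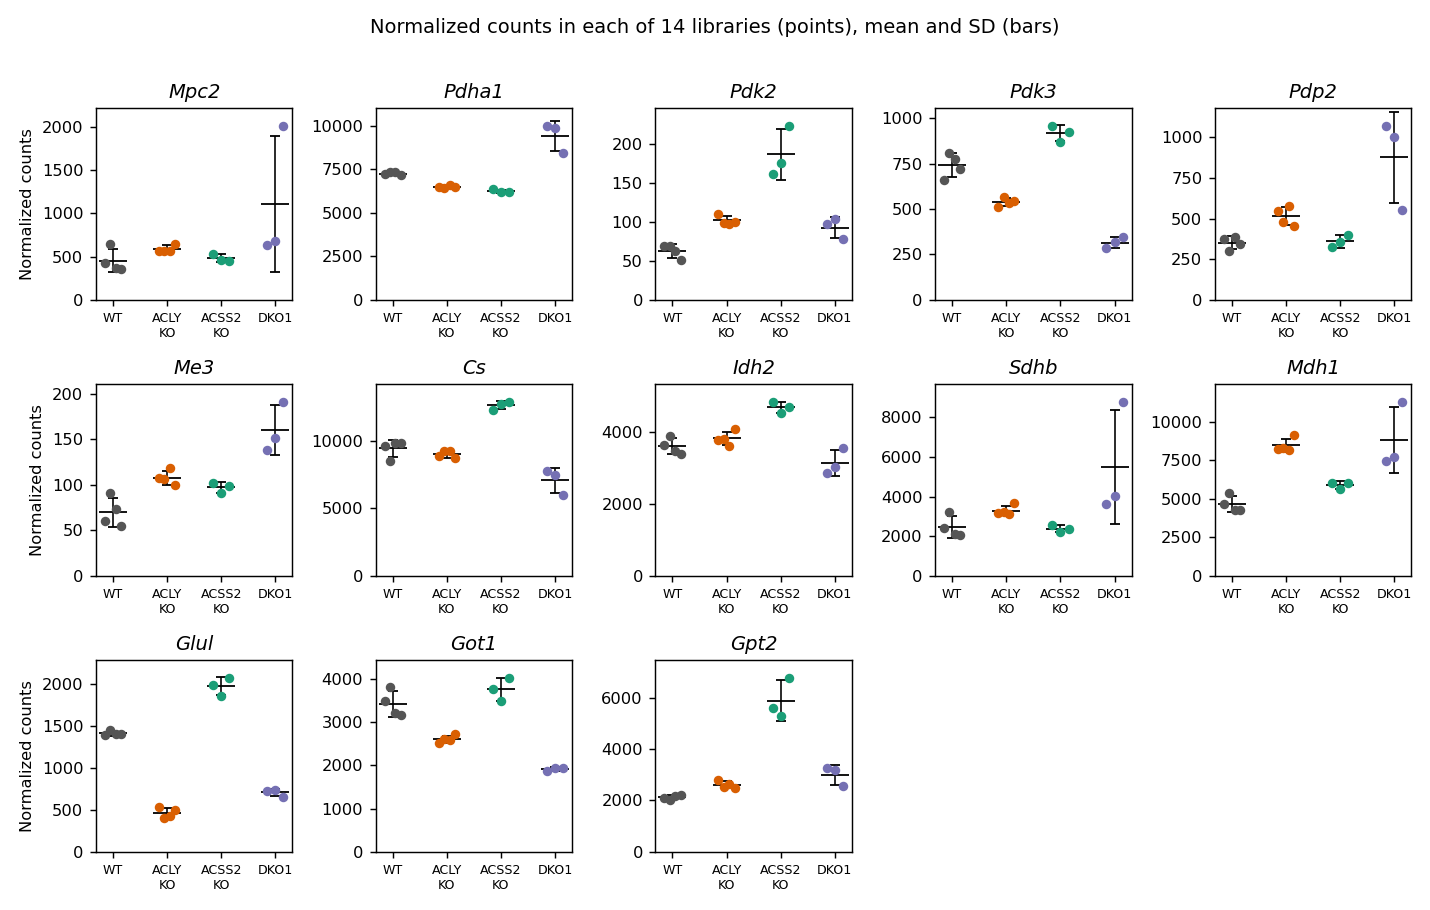
Normalized counts (y axis, from 0) of 13 genes in each library of the 4 genotypes (x axis), with the mean and SD of each genotype as black bars. The 3 ACSS2 KO libraries lie above all others for Gpt2, Pdk2 and Cs, the ACLY KO and DKO1 libraries lie below all others for Glul and Got1, and the single high DKO1 point for Mpc2 and Sdhb is replicate 4.

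The carrier genes Mpc1 and Mpc2 rose in DKO1 against WT, but by amounts that depended on DKO1 replicate 4. Mpc2 (chromosome 1, 165460637 to 165481214, GRCm38) had 429, 649, 367 and 361 normalized counts for WT, 564, 567, 568 and 649.9 for ACLY KO, 533, 462 and 445 for ACSS2 KO, and 632, 685 and 2017 for DKO1. A single DKO1 library, replicate 4, lay far above the others, and the highest WT library overlapped ACLY KO and DKO1. The log2 fold change in DKO1 against WT was 1.12 (SE 0.33, adjusted p = 0.011) and 0.586 without DKO1 replicate 4. Mpc2 was not called in ACLY KO against WT (0.42, SE 0.30, adjusted p = 0.28) or in DKO1 against ACLY KO (0.70, SE 0.33, adjusted p = 0.13). Mpc1 followed with 0.57 (SE 0.17, adjusted p = 0.012) in DKO1 against WT, or 0.277 without DKO1 replicate 4.

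The pyruvate dehydrogenase complex was called for all 5 of its genes in ACLY KO against WT, 4 higher and 1 lower. Pdha1, the E1 alpha subunit that carries the regulatory phosphorylation sites, moved against the rest. Pdha1 (X chromosome, 160122209 to 160138413) had 7209, 7321, 7326 and 7194 normalized counts for WT, 6461, 6407, 6609 and 6484 for ACLY KO, 6349, 6170.1 and 6187 for ACSS2 KO, and 10014, 9857 and 8436 for DKO1. Both single knockouts lay below every WT library and DKO1 lay above. The log2 fold change was -0.16 (SE 0.057, adjusted p = 0.03) in ACLY KO and -0.22 (SE 0.061, adjusted p = 0.017) in ACSS2 KO. It was 0.37 (SE 0.061, adjusted p = 0.00018) in DKO1 against WT and 0.54 (SE 0.061, adjusted p = 3.7e-05) in DKO1 against ACLY KO, the only member of the 45 with opposite calls in ACLY KO and DKO1 against WT. The small ACLY KO difference lost its call whichever WT or ACLY KO library was left out (adjusted p between 0.05 and 0.071). Both single-knockout calls were lost under equal library totals (adjusted p = 0.64 and 0.4) and quantile normalization (0.92 and 0.47), and the ACSS2 KO call also without ACSS2 KO replicate 2 or 4 (0.064 and 0.065).

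Genes within 5 Mb of Pdha1, 32 of those tested, had a median log2 difference of 0.58 in DKO1 against WT and 0.49 in DKO1 against ACLY KO, so the Pdha1 values there were of the size of its neighbours'. Whether a copy number difference between clones had a part in this was not tested. Of the other subunits, Pdhx, which encodes the E3-binding protein, rose in ACLY KO (0.46, SE 0.11, adjusted p = 0.0031) and in DKO1 against WT (0.69, SE 0.12, adjusted p = 0.00027). Pdhb, the E1 beta subunit, rose by 0.43 (SE 0.13, adjusted p = 0.013) in ACLY KO and by 0.40 (SE 0.14, adjusted p = 0.026) in DKO1. The DKO1 call on Pdhb was lost without DKO1 replicate 4 (0.198, adjusted p = 0.097) and without WT replicate 3 or 4 (adjusted p = 0.074 and 0.061). Dlat, the E2 acetyltransferase, rose by 0.25 (SE 0.051, adjusted p = 0.0012) in ACLY KO and was lower in DKO1 compared with ACLY KO (-0.26, SE 0.055, adjusted p = 0.0034). Dld, the E3 subunit shared with the oxoglutarate dehydrogenase complex, rose by 0.29 (SE 0.090, adjusted p = 0.017) in ACLY KO, a call lost without WT replicate 4 (adjusted p = 0.052).

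The kinases and phosphatases that switch the complex off and on changed with genotype and not in 1 direction. Pdk2 rose most in ACSS2 KO, Pdk1 fell there, and Pdk3 fell in ACLY KO and further in DKO1. Pdk2 (chromosome 11, 95026258 to 95041354) had 68.6, 69.5, 62.4 and 50.4 normalized counts for WT, 111, 98.9, 97.3 and 100.002 for ACLY KO, 161, 176 and 223 for ACSS2 KO, and 97.01, 103 and 77.9 for DKO1. ACSS2 KO did not overlap any other genotype, and WT was the lowest. The log2 fold change was 1.56 (SE 0.15, adjusted p = 6.9e-06) in ACSS2 KO, 0.70 (SE 0.14, adjusted p = 0.00082) in ACLY KO and 0.56 (SE 0.15, adjusted p = 0.0059) in DKO1 against WT. DKO1 was not called against ACLY KO (-0.14, SE 0.15, adjusted p = 0.51).

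Pdk3 (X chromosome, 93764607 to 93832201) had 659, 808, 776 and 722 normalized counts for WT and 512, 568, 531 and 546 for ACLY KO. It had 959.6, 871 and 923 for ACSS2 KO and 283, 317 and 344 for DKO1. The 4 genotypes did not overlap and ran from DKO1 through ACLY KO and WT to ACSS2 KO. Pdk3 fell by 0.45 on the log2 scale in ACLY KO (SE 0.080, adjusted p = 0.00035) and by 1.23 in DKO1 against WT (SE 0.086, adjusted p = 9.9e-08). DKO1 was lower than ACLY KO (-0.78, SE 0.086, adjusted p = 2.9e-05), while ACSS2 KO was higher than WT by 0.31 (SE 0.086, adjusted p = 0.017), a call lost without ACSS2 KO replicate 1 or 4 (adjusted p = 0.075 and 0.06). The 17 tested genes within 5 Mb of Pdk3 had a median of -0.19 in DKO1 against WT.

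Pdk1 fell in ACSS2 KO by 0.70 (SE 0.062, adjusted p = 4.3e-06), with 596 to 654 normalized counts against 929 to 1092 in WT. Its DKO1 difference from WT, 0.16 (SE 0.062, adjusted p = 0.046), was lost when any library other than WT replicate 2 was left out (adjusted p between 0.05 and 0.13). Pdk4, which rises in fasting in many tissues, was called in no comparison and lay between 302 and 407 normalized counts in all 14 libraries. Per kb of exon, the kinases summed to 674 ± 41.3 normalized counts for WT, 620.5 ± 12.6 for ACLY KO, 728 ± 15.8 for ACSS2 KO and 512 ± 14.5 for DKO1 (SD; n = 4, 4, 3 and 3). Pdk3 held 52.0% ± 1.66 of that sum for WT, 41.1% ± 1.12 for ACLY KO, 59.6% ± 1.80 for ACSS2 KO and 29.0% ± 2.66 for DKO1 (SD, same n). The share of Pdk1 was 29.1% ± 0.592 for WT, 33.5% ± 0.523 for ACLY KO, 16.6% ± 1.09 for ACSS2 KO and 42.7% ± 0.764 for DKO1. The kinase mRNA that was most abundant per kb was therefore Pdk3 in all groups except DKO1, where it was Pdk1.

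**Figure D4:**
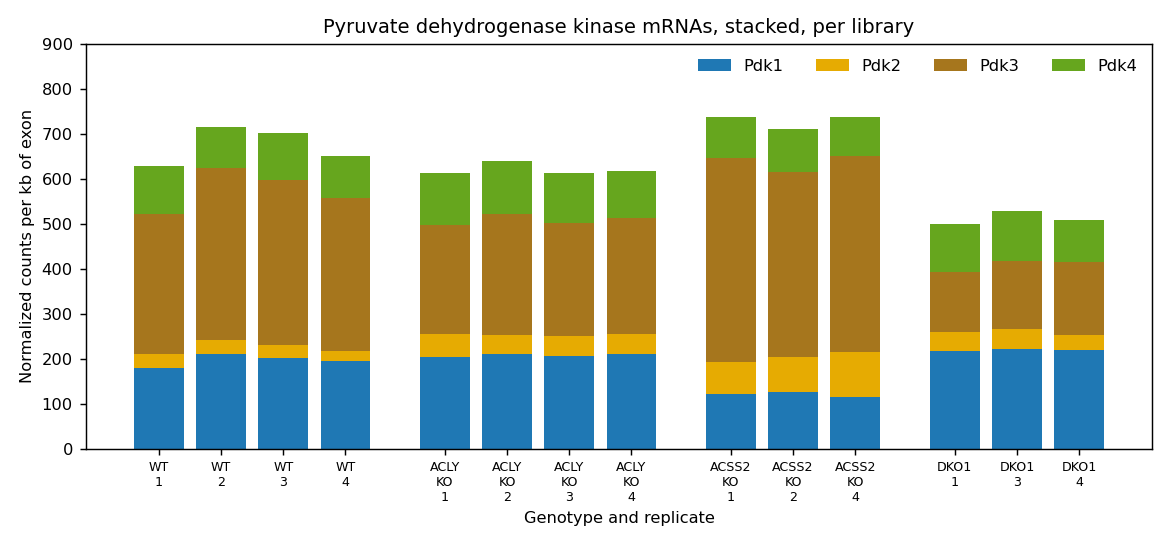
Stacked bars of the normalized counts per kb of exon (y axis, from 0) of Pdk1, Pdk2, Pdk3 and Pdk4 in each of 14 libraries (x axis, by genotype and replicate). The DKO1 bars are the shortest, with group means of 512 against 674 in WT, through a smaller Pdk3 part, and the ACSS2 KO bars have the widest Pdk2 part, 11.4% on average against 4.15% in WT.

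The 150 bases before the RefSeq start of Pdk2 and Pdk3 are printed because these kinases changed in opposite directions in ACLY KO; capitals mark CACGTG (the E-box), CCAAT or its complement ATTGG, and GGGCGG or its complement CCGCCC. Both are on the minus strand of GRCm38.p6, at chr11:95041372-95041521 and chrX:93832151-93832300.
Pdk2: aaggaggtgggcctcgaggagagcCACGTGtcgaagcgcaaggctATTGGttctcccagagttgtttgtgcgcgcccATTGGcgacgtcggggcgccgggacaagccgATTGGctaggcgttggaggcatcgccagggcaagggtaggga
Pdk3: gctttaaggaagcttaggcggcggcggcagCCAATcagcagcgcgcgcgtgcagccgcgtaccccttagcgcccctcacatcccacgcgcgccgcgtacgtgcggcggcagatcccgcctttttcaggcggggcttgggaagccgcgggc
The Pdk2 stretch held 1 E-box and 3 CCAAT sequences and the Pdk3 stretch 1 CCAAT sequence. Pdk2 has another annotated start, whose window held none of these.

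The phosphatase genes Pdp1 and Pdp2, whose products reactivate the complex, rose in both ACLY-deficient genotypes. Pdp2 (chromosome 8, 104591451 to 104599026) had 377, 302, 385 and 345 normalized counts for WT, 549, 479.6, 579.5 and 456 for ACLY KO, 322, 357 and 400.4 for ACSS2 KO, and 1073, 1004 and 556 for DKO1. The lowest DKO1 library, replicate 4, lay within the ACLY KO range. Pdp2 rose by 1.26 (SE 0.19, adjusted p = 0.0001) in DKO1 against WT and by 0.55 (SE 0.18, adjusted p = 0.021) in ACLY KO, the latter lost without ACLY KO replicate 1 or 3 or WT replicate 2 (adjusted p = 0.054, 0.061 and 0.059). DKO1 exceeded ACLY KO by 0.71 (SE 0.19, adjusted p = 0.014), a call lost without DKO1 replicate 1 or 3 (adjusted p = 0.056 and 0.061). Pdp1 rose by 0.69 (SE 0.063, adjusted p = 1.3e-06) in ACLY KO and by 0.56 (SE 0.068, adjusted p = 1.5e-05) in DKO1, with 705 to 802 normalized counts in ACLY KO, 676 to 728 in DKO1 and 464 to 493 in WT. In ACSS2 KO it had 462 to 527.

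All 3 genes for pyruvate carboxylase and the malic enzymes rose in ACLY KO. Pcx, which feeds pyruvate into oxaloacetate, had 957 to 993 normalized counts in ACLY KO, above the 567 to 677 of WT and the 579 to 595 of ACSS2 KO. It rose by 0.61 (SE 0.088, adjusted p = 7.2e-05) in ACLY KO. DKO1 had 652 to 865, lower than ACLY KO (-0.32, SE 0.095, adjusted p = 0.024), a call lost without DKO1 replicate 4 (-0.189, adjusted p = 0.057) or ACLY KO replicate 2 or 3 (0.057 and 0.051). Me3, a mitochondrial NADP-dependent malic enzyme and the least abundant of the 45 per kb, was called higher in every knockout. Me3 (chromosome 7, 89632392 to 89854359) had 60.6, 90.8, 72.9 and 55.1 normalized counts for WT, 107, 106, 118 and 99.3 for ACLY KO, 102, 90.9 and 98.5 for ACSS2 KO, and 138, 151 and 191 for DKO1. WT replicate 2 and the lowest ACSS2 KO library were nearly equal, and DKO1 lay above all others. The log2 fold change was 1.20 (SE 0.16, adjusted p = 3.5e-05) in DKO1 against WT, 0.64 (SE 0.15, adjusted p = 0.003) in ACLY KO and 0.50 (SE 0.16, adjusted p = 0.038) in ACSS2 KO. The ACSS2 KO call was lost on leaving out any ACSS2 KO library and WT replicate 1, 3 or 4 (adjusted p between 0.053 and 0.12), with ACLY KO replicate 1 or 2 left out (0.051 and 0.052), and under quantile normalization (0.33). DKO1 was higher than ACLY KO by 0.56 (SE 0.16, adjusted p = 0.021), a call lost without DKO1 replicate 4 or ACLY KO replicate 4 (adjusted p = 0.071 and 0.052). Me2, the NAD-dependent mitochondrial form, rose by 0.21 (SE 0.050, adjusted p = 0.0039) in ACLY KO and was lower in DKO1 compared with ACLY KO (-0.21, SE 0.054, adjusted p = 0.011).

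From citrate to 2-oxoglutarate, only Idh3b of 7 genes was called in ACLY KO. Cs, citrate synthase, and Idh2, the mitochondrial NADP-dependent isocitrate dehydrogenase, rose in ACSS2 KO and fell in DKO1. Cs (chromosome 10, 128337734 to 128362479) had 9591, 8479.7, 9805 and 9784 normalized counts for WT and 8818, 9208, 9213 and 8729 for ACLY KO. It had 12280.1, 12673 and 12867 for ACSS2 KO and 7712, 7463 and 5969 for DKO1. ACSS2 KO was the highest group and DKO1 the lowest, both without overlap, while WT replicate 2 lay below all ACLY KO libraries. Cs rose by 0.42 (SE 0.086, adjusted p = 0.0026) in ACSS2 KO and fell by 0.42 (SE 0.086, adjusted p = 0.00097) in DKO1 against WT. Its neighbours within 5 Mb, 73 genes, had a median of 0.52 in ACSS2 KO, so the Cs rise there cannot be told apart from that of its region, whereas in DKO1 against WT the median of the neighbours was -0.076.

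Idh2 (chromosome 7, 80094846 to 80115392) had 3644, 3891, 3475 and 3381 normalized counts for WT, 3776, 3803, 3620.1 and 4074 for ACLY KO, 4839, 4538 and 4693 for ACSS2 KO, and 2844, 3031 and 3539 for DKO1. ACSS2 KO lay above every other library, and DKO1 replicate 4 reached into the WT range. The rise in ACSS2 KO was 0.38 (SE 0.079, adjusted p = 0.0028). ACLY KO was not called (0.086, SE 0.073, adjusted p = 0.36). The DKO1 difference from WT, -0.20 (SE 0.079, adjusted p = 0.044), was lost on leaving out any library other than replicate 4 of WT, ACLY KO or DKO1 (adjusted p between 0.053 and 0.18) and under equal library totals and quantile normalization (0.085 and 0.24), whereas DKO1 was lower than ACLY KO (-0.29, SE 0.079, adjusted p = 0.016), a call lost without DKO1 replicate 1 or 3 (adjusted p = 0.058 and 0.052). The cytosolic form Idh1 was called against WT in DKO1 and in neither single knockout, rising by 0.64 (SE 0.081, adjusted p = 2.2e-05), and it was higher in DKO1 compared with ACLY KO by 0.73 (SE 0.081, adjusted p = 3e-05). Its values were 1677, 1817 and 1948 in DKO1 and between 999.5 and 1302 in the other 11 libraries. Idh3b, a subunit of the NAD-dependent enzyme, rose by 0.58 (SE 0.097, adjusted p = 0.00023) in ACLY KO and by 0.64 (SE 0.10, adjusted p = 0.00019) in DKO1. The catalytic subunit gene Idh3a and Idh3g were called in no comparison.

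Genes of the steps from 2-oxoglutarate to succinate were lower in DKO1 compared with ACLY KO for 3 of 5 members and higher for none. Ogdh, the E1 subunit of the oxoglutarate dehydrogenase complex, had 6379 to 7193 normalized counts in ACLY KO, 4295 to 5810 in WT and 3531 to 5599 in DKO1. Its log2 fold change in DKO1 against ACLY KO was -0.53 (SE 0.15, adjusted p = 0.018) and -0.307 without DKO1 replicate 4. The Ogdh rise in ACLY KO, 0.39 (SE 0.14, adjusted p = 0.03), was lost on leaving out WT replicate 1 or 2 or ACLY KO replicate 1, 2 or 3 (adjusted p between 0.052 and 0.089). Dlst, the E2 subunit, was lower in DKO1 compared with ACLY KO (-0.29, SE 0.047, adjusted p = 0.00056) and lower in DKO1 compared with WT (-0.22, SE 0.047, adjusted p = 0.0016), the latter call lost under equal library totals (adjusted p = 0.066). Suclg2, the GTP-forming subunit of succinyl-CoA ligase, rose in ACLY KO by 0.48 (SE 0.055, adjusted p = 9.9e-06), from between 2009 and 2351 normalized counts in WT to between 3011 and 3178. In DKO1 it had 2623 to 2677, lower than ACLY KO (-0.24, SE 0.060, adjusted p = 0.01). The ATP-forming partner Sucla2 was not called in any comparison.

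From succinate to oxaloacetate, Mdh1 rose in both ACLY-deficient genotypes. It encodes the cytosolic malate dehydrogenase. Mdh1 (chromosome 11, 21556787 to 21572367) had 4682, 5406, 4268 and 4273 normalized counts for WT, 8231, 8325, 8177 and 9131 for ACLY KO, 6057, 5612 and 6034 for ACSS2 KO, and 7459.9, 7696 and 11308 for DKO1. All 7 ACLY-deficient libraries lay above all 7 others. The ACSS2 KO libraries lay above every WT library, though Mdh1 was not called there (0.35). The log2 fold change was 0.87 (SE 0.12, adjusted p = 5e-05) in ACLY KO and 0.90 (SE 0.13, adjusted p = 6.3e-05) in DKO1 against WT. The 38 tested neighbours within 5 Mb had medians of 0.29 and 0.27. The mitochondrial Mdh2, the most abundant of the 45 genes per kb, rose by 0.29 (SE 0.098, adjusted p = 0.028) in ACLY KO, a call lost without ACLY KO replicate 2, 3 or 4 or WT replicate 3 or 4 (adjusted p between 0.051 and 0.084).

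Sdhb, the iron-sulfur subunit of succinate dehydrogenase (chromosome 4, 140961203 to 140979193), had 2426, 3222, 2102 and 2076 normalized counts for WT, 3163, 3226, 3125 and 3659 for ACLY KO, 2576, 2205 and 2371 for ACSS2 KO, and 3625, 4051 and 8788 for DKO1. DKO1 replicate 4 lay far above both other DKO1 libraries, and replicate 1 of DKO1 lay just under the highest ACLY KO library. Sdhb rose by 1.06 (SE 0.25, adjusted p = 0.0026) in DKO1 against WT, or 0.665 without DKO1 replicate 4, and its 85 neighbours had a median of 0.46. It was not called in ACLY KO against WT (0.44, SE 0.23, adjusted p = 0.13) or in DKO1 against ACLY KO (0.62, SE 0.25, adjusted p = 0.081). The flavoprotein subunit gene Sdha had a difference of like sign in ACLY KO, but a called one. Its 35 neighbours had a median of -0.24 in DKO1 against ACLY KO. Sdha rose in ACLY KO by 0.36 (SE 0.052, adjusted p = 8.2e-05), to between 7302 and 7574 normalized counts from between 5647 and 5996 in WT, and was lower in DKO1 compared with ACLY KO (-0.41, SE 0.056, adjusted p = 0.00016), at 5164 to 5899.

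All 8 genes of glutamine, glutamate and transaminase reactions were called in ACLY KO, 5 higher and 3 lower. Glul, glutamine synthetase, had the largest change of the 45 genes in ACLY KO. Glul (chromosome 1, 153899944 to 153909723) had 1392, 1457, 1399.9 and 1399.8 normalized counts for WT and 532, 398, 429.5 and 494 for ACLY KO. It had 1994, 1858 and 2075 for ACSS2 KO and 730.2, 739 and 656 for DKO1. The groups were separate in the order ACLY KO, DKO1, WT and ACSS2 KO. Glul fell by 1.61 (SE 0.085, adjusted p = 8e-09) in ACLY KO, to 0.327 times the WT level, and by 0.996 (SE 0.092, adjusted p = 1.3e-06) in DKO1. It rose by 0.48 (SE 0.092, adjusted p = 0.0017) in ACSS2 KO and was higher in DKO1 compared with ACLY KO by 0.62 (SE 0.092, adjusted p = 0.00032). The 41 neighbours within 5 Mb had medians of 0.11 for ACLY KO, 0.20 for ACSS2 KO and -0.089 for DKO1 against WT. Gls2, a glutaminase that runs the reverse reaction, was low, at 64.7 to 89.3 normalized counts in WT, and rose in ACLY KO (0.60, SE 0.11, adjusted p = 0.00047), ACSS2 KO (0.71, SE 0.12, adjusted p = 0.00057) and DKO1 (0.53, SE 0.12, adjusted p = 0.0018). It lies close to Cs on chromosome 10, and its 74 neighbours within 5 Mb had a median of 0.50 in ACSS2 KO, so most of the size of its rise there cannot be told apart from that of its region, whereas the medians were -0.084 in ACLY KO and -0.090 in DKO1 against WT.

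Gpt2, the mitochondrial alanine transaminase that converts glutamate and pyruvate to 2-oxoglutarate and alanine, rose most in ACSS2 KO. Gpt2 (chromosome 8, 85492576 to 85527560) had 2082, 2004, 2178 and 2202 normalized counts for WT, 2816, 2539.5, 2647 and 2473 for ACLY KO, 5609, 5298 and 6787 for ACSS2 KO, and 3261, 3172 and 2555 for DKO1. All ACSS2 KO libraries lay far above the 11 others, and all ACLY KO and DKO1 libraries lay above WT. The log2 fold change was 1.47 (SE 0.10, adjusted p = 4.2e-07) in ACSS2 KO, 0.49 (SE 0.10, adjusted p = 0.00096) in DKO1 and 0.31 (SE 0.092, adjusted p = 0.014) in ACLY KO. DKO1 was not called against ACLY KO (0.19, SE 0.10, adjusted p = 0.19). The 75 neighbours had a median of 0.0085 in ACSS2 KO. Gpt, the cytosolic form, was at 82.8 to 117 normalized counts in WT and rose in ACLY KO by 0.53 (SE 0.18, adjusted p = 0.022), a call lost without WT replicate 1 or 4 or ACLY KO replicate 4 (adjusted p = 0.069, 0.054 and 0.056) and under quantile normalization (0.051).

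Got1, the cytosolic aspartate transaminase, fell in ACLY KO and further in DKO1, while the mitochondrial Got2 rose in ACLY KO. Got1 (chromosome 19, 43499752 to 43524605) had 3492, 3832, 3221 and 3162 normalized counts for WT, 2524, 2608, 2591 and 2724 for ACLY KO, 3779, 3497 and 4034 for ACSS2 KO, and 1863, 1939 and 1944 for DKO1. The DKO1 libraries were the lowest and the ACLY KO libraries came next, without overlap. Got1 fell by 0.39 (SE 0.068, adjusted p = 0.00036) in ACLY KO and by 0.83 (SE 0.074, adjusted p = 8.1e-07) in DKO1 against WT, and DKO1 was lower than ACLY KO (-0.45, SE 0.074, adjusted p = 0.00066). The 451 genes tested on chromosome 19 had medians of -0.38 and -0.54 in ACLY KO and DKO1 against WT, and the 97 genes within 5 Mb of Got1 -0.42 and -0.58. The Got1 difference in ACLY KO was thus of the size of its chromosome's and cannot be told apart from it. Got2 rose by 0.41 (SE 0.061, adjusted p = 8.7e-05) in ACLY KO, at 9535 to 9662 normalized counts against 6768 to 7525 in WT, and was lower in DKO1 compared with ACLY KO (-0.31, SE 0.066, adjusted p = 0.0037).

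Slc1a5, a plasma membrane carrier of glutamine and other neutral amino acids, rose in ACLY KO by 0.60 (SE 0.067, adjusted p = 7.2e-06). It had 1289 to 1316 normalized counts for ACLY KO, above the 827 to 1038 of the other 10 libraries, and DKO1 was lower than ACLY KO (-0.51, SE 0.073, adjusted p = 0.00021). Glud1, glutamate dehydrogenase, fell by 0.22 (SE 0.047, adjusted p = 0.0019) in ACLY KO and by 0.20 (SE 0.051, adjusted p = 0.0053) in DKO1, calls that were lost under equal library totals (adjusted p = 0.1 and 0.057) and quantile normalization (0.2 and 0.53). Of the carriers of dicarboxylates and 2-oxoglutarate, Slc25a10 fell by 0.30 (SE 0.096, adjusted p = 0.019) in ACLY KO, a call lost under both other scalings (adjusted p = 0.078 and 0.051) and without WT replicate 1 or 4 or ACLY KO replicate 2 (0.057, 0.052 and 0.061). Slc25a11 rose by 0.60 (SE 0.18, adjusted p = 0.013) in DKO1, or 0.316 without DKO1 replicate 4.

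The bases before the RefSeq starts of Glul, Gpt2 and Got1 are printed because Glul and Gpt2 changed most among the glutamine genes in ACLY KO and ACSS2 KO, and because Got1 held the most CCAAT sequences of any member. Capitals mark the same letters as for the kinases. The Glul and Gpt2 stretches of 150 bases are on the plus strand of GRCm38.p6 at chr1:153899779-153899928 and chr8:85492426-85492575, and the Got1 stretch of 250 bases is on the minus strand at chr19:43524606-43524855.
Glul: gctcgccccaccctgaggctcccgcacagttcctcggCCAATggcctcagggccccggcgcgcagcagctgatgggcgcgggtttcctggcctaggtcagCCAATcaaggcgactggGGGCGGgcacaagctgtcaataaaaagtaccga
Gpt2: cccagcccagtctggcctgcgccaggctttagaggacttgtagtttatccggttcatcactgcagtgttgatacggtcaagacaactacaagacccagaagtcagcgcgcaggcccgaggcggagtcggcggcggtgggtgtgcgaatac
Got1: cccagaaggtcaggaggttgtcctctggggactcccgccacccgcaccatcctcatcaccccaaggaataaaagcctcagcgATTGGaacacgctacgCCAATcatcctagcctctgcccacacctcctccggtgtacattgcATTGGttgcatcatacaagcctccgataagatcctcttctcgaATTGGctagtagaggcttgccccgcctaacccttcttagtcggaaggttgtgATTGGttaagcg
Glul held 2 CCAAT sequences and 1 GGGCGG, Gpt2 none of the letters searched in these 150 bases, and Got1 5 CCAAT sequences. With 50 bases after the start included, the Got1 window of 300 bases held 6, and 26 of 32851 mouse promoter windows, 0.079%, held at least as many.

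A RefSeq promoter window of 300 bases was found for 38 of the 45 genes, 48 windows in all, on GRCm38.p6. There were 6 members with more than 1 window, and some windows of Ogdh overlap, so the windows are not separate promoters. The set of all windows was not matched to the members for expression. Both strands were searched. CCAAT was in 62.5% of the members' windows (24 genes) and 37.4% of all windows, and GGGCGG in 66.7% (27 genes) and 35.7%. CACGTG was in 12.5% of them, for Ogdh, Pcx, Pdk2 and Pdp2, and in 7.15% of all. The NRF1 motif was in none of the members' windows and 0.971% of all, and TNAAGGTCA of the estrogen-related receptors in 1 member, Sdhd, and 1.28% of all windows. TGATGNAAT, the C/EBP-ATF response element, was in none of them and 0.965% of all. None of these motifs is contained in another, and a match describes these letters only.

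The effect of ACSS2 loss was not the same in ACLY KO and WT cells for 18 of the 45 genes, 3 with a higher and 15 with a lower value of the difference, tested as an interaction in limma, against 27.1% of all genes (12% higher and 15.1% lower). The median difference of the 45 genes was -0.13, against -0.0085 for all genes. Without DKO1 replicate 4 and WT replicate 2 there were 33, 5 higher and 28 lower, against 44.3% of all genes. The largest differences were in Pdk2 at -1.70 (SE 0.21, adjusted p = 6.3e-05), Gpt2 at -1.28 (SE 0.14, adjusted p = 2.6e-05) and Pdk3 at -1.09 (SE 0.12, adjusted p = 2.9e-05). Pdk2 and Gpt2 rose with ACSS2 loss in WT cells and were not called with it in ACLY KO cells, and Pdk3 rose in the former and fell in the latter. Pdk1 at 0.77 (SE 0.088, adjusted p = 3.6e-05), Pdha1 at 0.76 (SE 0.086, adjusted p = 3.6e-05) and Idh1 at 0.68 (SE 0.12, adjusted p = 0.00079) were the 3 higher ones. The neighbours of Pdha1 within 5 Mb had medians of 0.49 in DKO1 against ACLY KO and -0.13 in ACSS2 KO against WT. Most of the size of the Pdha1 difference thus cannot be told apart from that of its region.

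Dlat, Me2, Ogdh, Sdha, Got2 and Slc1a5, each called higher in ACLY KO against WT and lower in DKO1 against ACLY KO, were not called in DKO1 against WT, which does not show that they were at the WT level. The first 2 of these comparisons share the ACLY KO libraries, so a high ACLY KO value enters both and the pairing of calls is not a result.

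Ratios of paired enzymes within a library do not depend on how the libraries were scaled. Exact two-sided permutation tests were run on 10 ratios in 4 comparisons, 40 in all. With 4 against 4 libraries the smallest p is 0.0286 and with 3 against 4 it is 0.0571, so after adjustment over the 40 tests no ratio in any comparison could reach 0.05, and the ratios are given as values with their unadjusted p. The smallest adjusted p obtained was 0.0879. The log2 ratio of cytosolic Mdh1 to mitochondrial Mdh2 was -0.40 ± 0.038 for ACLY KO and -0.98 ± 0.025 for WT (SD, n = 4 each), higher in 4 of 4 libraries (exact permutation p = 0.0286). It also lay above WT without overlap in ACSS2 KO (-0.55 ± 0.046) and DKO1 (-0.35 ± 0.094; SD, n = 3 each), with an exact permutation p of 0.0571 for each. The ratio of Got1 to Got2 was -1.87 ± 0.048 in ACLY KO and -1.07 ± 0.17 in WT, a difference of -0.80 with an exact permutation p of 0.0286. The log2 ratio of Glul to Gls2 was 2.01 ± 0.13 in ACLY KO and 4.22 ± 0.18 in WT, and that of Pcx to Pdha1 -2.73 ± 0.033 and -3.50 ± 0.13, also without overlap and with the same exact p. For Idh1 to Idh2 the values were -0.79 ± 0.065 (SD, n = 3) in DKO1, -1.63 ± 0.060 in WT and -1.81 ± 0.15 in ACLY KO, with an exact permutation p of 0.0571 for DKO1 against each.

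**Figure D5:**
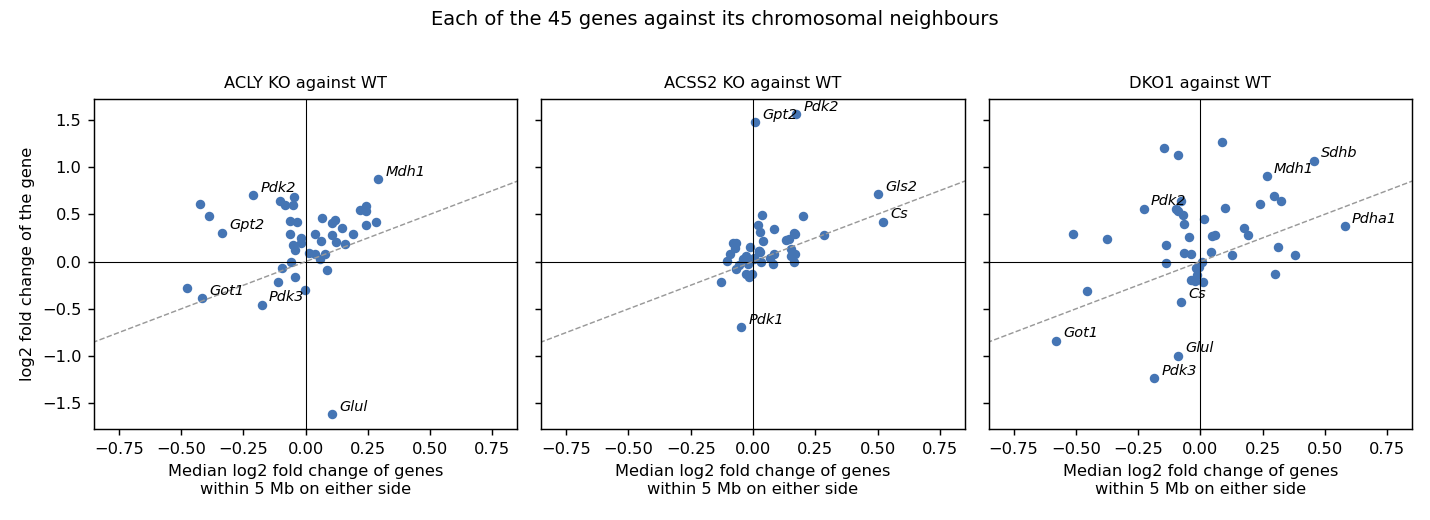
The y axis is the log2 fold change of each of the 45 genes against WT and the x axis the median log2 fold change of the tested genes within 5 Mb on either side, with equality as a dashed line. Got1 in ACLY KO, Cs in ACSS2 KO and Pdha1 in DKO1 lie near or below the line at neighbour medians of -0.42, 0.52 and 0.58, whereas Glul in ACLY KO, Gpt2 and Pdk2 in ACSS2 KO and Pdk3 in DKO1 lie far from it.

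For 16 of the 86 calls in the comparisons with WT and in DKO1 against ACLY KO, the median of the neighbours had the same sign as the gene's own difference and more than 50% of its size. Besides Got1, Cs, Gls2 and Pdha1 these were calls on Dld, Glud1, Idh3b, Me2, Ogdh, Pdk1, Sdha and Slc25a10. Slc25a10, for example, was higher in DKO1 compared with ACLY KO by 0.37, where its 131 neighbours had a median of 0.37.

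A wider list of 54 genes of pyruvate, amino acid and dicarboxylate metabolism outside the 45 was read for context. All 54 were in the table and 46 passed the filter on low values. In ACLY KO against WT 14 were higher and 6 lower, 43.5% of those tested against 48.5% of all genes. In ACSS2 KO 15 were higher and 4 lower, 41.3% against 26%. In DKO1 against WT the counts were 13 and 12, 54.3% against 56%, and in DKO1 against ACLY KO 5 and 11, 34.8% against 27.9%. In ACLY KO the smallest adjusted p-values were those of Slc16a3, a lactate exporter (-3.56, SE 0.080, adjusted p = 9.8e-12), Slc25a13, a mitochondrial aspartate-glutamate carrier (-2.02, SE 0.067, adjusted p = 1.7e-10), and Dbt, the E2 subunit of the branched-chain ketoacid dehydrogenase (1.004, SE 0.051, adjusted p = 5.6e-09). In DKO1 against ACLY KO they were Ogdhl, a relative of Ogdh (-2.80, SE 0.16, adjusted p = 9.3e-08), Aldh4a1, which makes glutamate from proline breakdown (0.72, SE 0.071, adjusted p = 1.1e-05), and Slc25a13 (0.73, SE 0.073, adjusted p = 1.3e-05).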

How the data were processed

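Values were deposited for 14 RNA-seq libraries, grouped by the genotype in the sample labels. The authors prepared stranded poly(A) libraries, sequenced 75-base single-end reads, aligned them with STAR 2.6.1a to GRCm38 and normalized with the DESeq2 application named in the submitters' processing notes (version 1.0.1). The deposited signal values are counts that the authors divided by normalization factors. They are not whole reads, and how reads were assigned to genes is not given in the sources used here. Depth was estimated as the library total divided by its most frequent low value, and no counting interval was computed, so precision comes from the spread between libraries.

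limma 3.58.1 (R 4.3.3) with an intensity trend was run on log2(value + 1) for the 12711 genes with a mean of at least 10, all libraries sharing the spread, with Benjamini-Hochberg adjustment over all genes tested. Isoenzyme ratios were compared by exact permutation tests in scipy 1.17.1. The procedure was tested on simulated data. Gene positions and exon lengths are from GENCODE M21, promoter sequences from RefSeq (GRCm38.p6). In 26 rows the symbol had been turned into a date, and no gene was assigned to them.

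Members and gene lists were chosen with earlier results of these data known. Values in every library are given for members called with an absolute log2 fold change of at least 0.8 in a comparison with WT or in DKO1 against ACLY KO, and for Pdha1, Cs and Idh2. Related genes are the 3 with the smallest adjusted p in ACLY KO against WT and in DKO1 against ACLY KO. The promoters printed were chosen after the values were seen. Alternatives covered the added constant, filters, other scalings, a transcript length correction (spline with 5 degrees of freedom), omitted libraries, the replicate number, call limits, no intensity trend and fits of only the groups compared.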

Additional observations from a re-analysis of the deposited data

Results flagged for a closer look

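Within genotypes of 4 libraries, 90 sets of 4 values were examined for a library whose gap to the nearest of the others exceeded the Dixon limit at the 95% level, and 14 were found. Chance gives about 1 in 20, or 4.5 of 90. Of the 14, 9 were in WT replicate 2, 4 in ACLY KO replicate 4 and 1 in ACLY KO replicate 3. WT replicate 2 was high for Dld (3420.2 normalized counts), Idh3b (4031.1), Sucla2 (2651.2), Suclg1 (2802.8), Sdhc (3061.4), Sdhd (3967.6) and Glul (1457.2), and low for Cs (8479.7) and Aco1 (2291.2). ACLY KO replicate 4 was high for Mpc2 (649.9), Dld (3845.2), Idh3g (2217.0) and Mdh1 (9131.4). Got2 in ACLY KO replicate 3, at 9662.3, stood apart by little, since the other ACLY KO libraries lay between 9535 and 9556. In the genotypes of 4 libraries, WT replicate 2 and ACLY KO replicate 4 were those whose deviations fell with exon length over all genes. Groups of 3 libraries were not examined this way.

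The effect of ACSS2 loss differed between ACLY KO and WT cells, by the interaction term in limma, for 18 genes. The difference of the log2 effects, ACLY KO background minus WT background, was 0.7556 for Pdha1, 0.7692 for Pdk1 and 0.6752 for Idh1. It was negative for the other 15. The glutamine and transaminase genes had -0.7771 (Gls2), -0.586 (Got1), -0.4101 (Got2), -1.2833 (Gpt2) and -0.6673 (Slc1a5). The kinases Pdk2 and Pdk3 had -1.6979 and -1.0901. In the cycle the values were -0.7835 for Cs, -0.6718 for Idh2, -0.7432 for Ogdh, -0.2714 for Dlst, -0.4306 for Suclg2 and -0.4958 for Sdha, and they were -0.3728 for Dlat and -0.3213 for Me2. The genes within 5 Mb of Pdha1 had medians of 0.49 in DKO1 against ACLY KO and -0.13 in ACSS2 KO against WT. For Cs these medians were 0.0155 and 0.52, and for Gls2 0.0142 and 0.50. Most of the size of the Pdha1, Cs and Gls2 differences thus cannot be told apart from that of their regions. Since ACLY KO, ACSS2 KO and DKO1 are 1 clone each, a difference between clones cannot be told apart from an interaction of genotypes.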

How the results depend on the processing

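No called fold change of a member reversed under the alternatives tried. The members called in ACLY KO against WT, ACSS2 KO against WT, DKO1 against WT, DKO1 against ACLY KO, DKO1 against ACSS2 KO and the interaction were 27, 11, 29, 19, 23 and 18. Leaving out 1 library at a time gave 22 to 34, 7 to 16, 23 to 28, 17 to 20, 20 to 27 and 18 to 23, with the 7 from omitting ACSS2 KO replicate 4 and the 34 and 16 from omitting DKO1 replicate 4. Leaving out both DKO1 replicate 4 and WT replicate 2 gave 41, 24, 34, 30, 30 and 33. An adjusted p limit of 0.01 gave 7, 19 and 11 in ACSS2 KO against WT, DKO1 against WT and DKO1 against ACLY KO. Requiring a log2 fold change of at least 0.5 gave 11, 4, 16 and 8 in ACLY KO, ACSS2 KO and DKO1 against WT and DKO1 against ACLY KO. Fits of only the groups compared gave 16 in DKO1 against WT and 12 in DKO1 against ACLY KO. Equal library totals moved the median of all genes to 0.10 and 0.11 in ACLY KO and ACSS2 KO against WT and gave 34 (31 higher and 3 lower, against 21 and 6) and 17 (16 and 1, against 9 and 2). Quantile normalization gave 22 higher and 3 lower in ACLY KO, and the length correction 21 and 11 in DKO1 against WT, where 22 and 7 were called.

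The replicate numbers did not pair the libraries. Deviations of the 18 same-numbered pairs had correlations between -0.431 and 0.446, and 6 of 14 libraries correlated best with their own number. A fit with the replicate block called 27, 10, 27, 19, 24 and 18 members. It lost Me3 in ACSS2 KO and Idh2 and Mdh2 in DKO1 against WT (adjusted p = 0.068, 0.083 and 0.053). With the block and the length correction together the counts were 33, 12, 32, 27, 28 and 24. The causes of these shifts were not tested. All 45 members had at least 10 normalized counts in every library. After adjustment no ratio test could reach 0.05 in any comparison, and those with the 3 libraries of ACSS2 KO or DKO1 could not before adjustment either. Values of short genes varied most between the DKO1 libraries.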
